A study of Mus musculus with 22 samples.

Results

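Leukocytes enter the gut wall through a sequence of contacts between blood cells and vessel wall, and the RNA of 9 genes of that sequence was followed in the mouse distal colon: Sele, Selp, Icam1, Vcam1, Madcam1 and Pecam1 on the vessel side, and Itga4, Itgb7 and Itgae on the leukocyte side. The genes were taken by symbol, 9 of the 46078 genes in the table of counts, and each symbol was found once. The libraries came from 8 C57BL/6 mice (4 males, 4 females) aged 14 weeks, 7 Winnie mice (3 males, 4 females) aged 14 weeks and 7 mice of the Winnie strain that had a rectal prolapse (4 males, 3 females) aged 18 weeks, called Winnie-Prolapse here. Winnie mice carry a missense mutation of the mucin gene Muc2 and develop colitis without any treatment. The study's methods describe the Winnie and C57BL/6 mice as coming from 1 breeding colony, and no treatment was named for any group. A missense mutation need not change the RNA level of its gene, so the Muc2 level was not used as a check of the labels. Age and prolapse cannot be told apart, because every Winnie-Prolapse mouse was older than every other mouse.

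Selectins on activated endothelium bind sugars on passing leukocytes and slow them, chemokines then switch leukocyte integrins on, and the integrins bind immunoglobulin-family ligands on the vessel so that the cell stops and crosses. In the gut, the integrin made of the Itga4 and Itgb7 chains binds MAdCAM-1, the addressin of mucosal venules, whereas Itga4 with the beta-1 chain binds VCAM-1. Once in the tissue, the integrin made of the Itgae chain (CD103) and Itgb7 binds E-cadherin on epithelial cells and is known from intraepithelial lymphocytes and a class of dendritic cells.

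Libraries held from 24.8 to 36.3 M counts, and levels are given in CPM, counts scaled to the library total. A difference was called when the adjusted p of edgeR was under 0.001 and the change was at least 1.5-fold, the limits used by the study. A looser rule, an adjusted p under 0.05 with the same fold, is named wherever it is used. Markers of colon epithelium were present, with summed medians of 8543 CPM in C57BL/6, 10786 CPM in Winnie and 10068 CPM with prolapse. Several libraries stood apart. Winnie-Prolapse replicate 6 held 179624 CPM of milk protein genes against 54.2 CPM or less elsewhere. They took 17.96% of its counts, which lowers the CPM and RPKM of all its other genes. It was the lowest Winnie-Prolapse library for Itga4, Itgb7 and Itgae. Squamous epithelium markers summed to 172 to 3284 CPM in Winnie-Prolapse replicates 2, 4, 5, 6 and 7, to 51.1 CPM in Winnie replicate 2 and to 4.50 CPM or less in the other libraries. C57BL/6 replicate 5 held the most B cell and follicle marker RNA of all libraries, 285 CPM, and C57BL/6 replicate 7 the least, 4.24 CPM. C57BL/6 replicate 7 also held 4.27 CPM of neutrophil markers, against 243 to 359 CPM in the other controls. Of the 8 genes in that sum, 3 passed the low-count filter in Winnie against C57BL/6. The sum thus rests on few genes and need not follow the number of neutrophils. The smooth muscle markers of C57BL/6 replicate 7, 12048 CPM, and its fibroblast and pericyte markers, 1912 CPM, summed highest in its group. It was the lowest C57BL/6 library for Madcam1, Selp, Itga4, Itgb7, Itgae and Pecam1.

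Levels in C57BL/6 colon were taken in RPKM, counts scaled by library total and the union length of all exons of a gene. They were 4.14 ± 0.851 for Pecam1, 1.46 ± 0.922 for Itgb7, 1.39 ± 0.483 for Icam1 and 1.02 ± 0.414 for Vcam1. Next came Itga4 with 0.995 ± 0.451, Madcam1 with 0.969 ± 0.809 and Itgae with 0.552 ± 0.184. Selp was at 0.208 ± 0.122 and Sele at 0.0108 ± 0.0145 (SD, n = 8 for each gene). Pecam1, present on all endothelium and on platelets and many leukocytes, stood first, and the endothelial selectins stood last. Neighbours in this order had overlapping ranges over libraries except Selp and Sele. The order depends on the exon length used: by mean CPM, Itga4 at 13.9 came next after Pecam1 at 25.8. In Winnie-Prolapse colon the order was Icam1 with 10.3 ± 6.47 RPKM, Pecam1 with 5.76 ± 2.23, Itgb7 with 3.62 ± 0.821, Selp with 3.43 ± 4.51, Madcam1 with 2.95 ± 0.714, Vcam1 with 2.78 ± 0.991, Itga4 with 1.69 ± 0.668, Itgae with 0.882 ± 0.411 and Sele with 0.699 ± 0.922 (SD, n = 7). Icam1 thus moved from the third place to the first, although every pair of neighbours in the Winnie-Prolapse order overlapped. The place of Selp rests on replicate 4, since its Winnie-Prolapse mean of 15.1 CPM fell to 7.99 ± 6.71 CPM without that library (SD, n = 6).

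**Figure D1:**
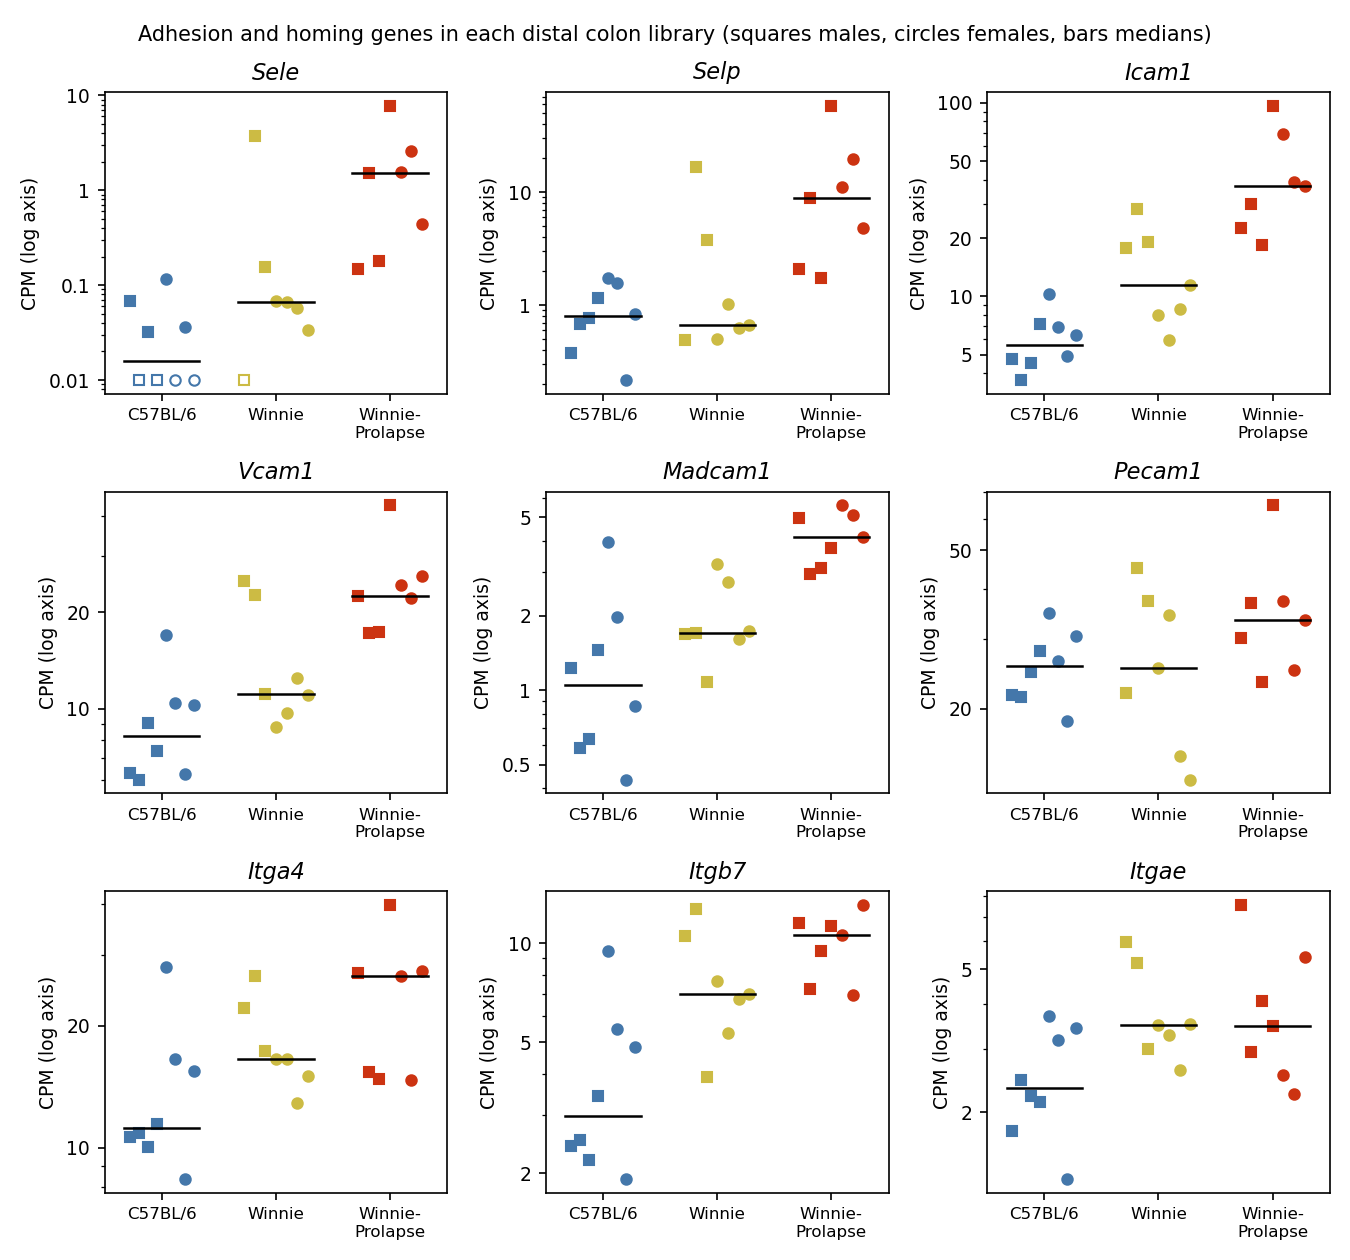
CPM of each gene (log axis) in each library of the 3 groups, with squares for males, circles for females and a bar for the group median. Open symbols in the Sele panel are libraries with 0 counts, drawn at 0.01 CPM. All 7 Winnie-Prolapse libraries sit above all 8 C57BL/6 libraries for Sele, Selp, Icam1 and Vcam1.

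Relative to their means, the selectins spread most of the 9 genes in Winnie and in Winnie-Prolapse. P-selectin, encoded by Selp, is stored in endothelial cells and platelets and catches passing leukocytes. Selp was lowest at 0.217, at the median 0.795 and highest at 1.74 CPM in C57BL/6, at 0.495, 0.670 and 16.5 CPM in Winnie, and at 1.75, 8.83 and 58.1 CPM in Winnie-Prolapse. All 7 Winnie-Prolapse libraries were above all 8 C57BL/6 libraries, by a narrow margin at the lower end, and 5 of the 7 Winnie libraries lay within the C57BL/6 range. Because these are whole-tissue libraries, fewer cells of a type and less RNA per cell cannot be told apart, nor more cells and more RNA per cell. Selp rose in Winnie-Prolapse against C57BL/6, with a log2 fold change of 4.10 ± 0.70 (SE) and an adjusted p of 0.0002. It was not called with limma-voom (adjusted p = 0.00345), nor by edgeR with the 2 Winnie-Prolapse libraries without squamous markers (1.23, adjusted p = 0.126). It was not called in Winnie against C57BL/6, with a log2 fold change of 1.90 ± 0.75 and an adjusted p of 0.0712, while the Winnie median was below that of C57BL/6. Winnie replicate 2 set most of that difference: without it the log2 fold change was 0.41 and the adjusted p 0.597, and the Winnie mean fell from 3.37 ± 5.92 (SD, n = 7) to 1.18 ± 1.27 CPM (SD, n = 6). Selp in Winnie-Prolapse against Winnie was at a log2 fold change of 2.20 ± 0.95 with an adjusted p of 0.146, and at 3.70 with an adjusted p of 0.0143 without Winnie replicate 2.

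E-selectin, encoded by Sele, is made by endothelial cells after inflammatory stimulation. Sele was counted 7 times in all in the 8 C57BL/6 libraries, with 0 to 3 counts in each. The Winnie libraries held 0, 116, 4, 2, 2, 2 and 1 counts in the order of the replicates. The Winnie-Prolapse libraries held 5, 47, 6, 235, 48, 65 and 12 counts. Every Winnie-Prolapse library thus held more Sele counts than any C57BL/6 library, and a single library, replicate 2, held 116 of the 127 Winnie counts. Sele passed the low-count filter in no comparison and has no main test. Fitted without that filter, Sele rose in Winnie-Prolapse against C57BL/6, with an adjusted p of 0.00013 by edgeR. The edgeR adjusted p was 0.032 for Winnie against C57BL/6 and 0.365 for Winnie-Prolapse against Winnie. For Winnie against C57BL/6 the log2 fold change was 4.09 by edgeR and 0.94 by DESeq2, which gave no adjusted p. For Winnie-Prolapse against C57BL/6 it was 5.88 by edgeR and 6.06 by DESeq2. The ratio of summed counts, scaled by the library totals, Winnie-Prolapse to C57BL/6, was 64.3 (95% interval 30.9 to 161, counting error only). C57BL/6 replicate 5 held 3 of the 7 control counts, and without it the C57BL/6 mean fell from 0.0315 to 0.0195 CPM. The Sele mean was 2.04 ± 2.68 CPM in Winnie-Prolapse (SD, n = 7) and 1.08 ± 0.988 without replicate 4 (SD, n = 6), and in Winnie it was 0.585 ± 1.38 (SD, n = 7) and 0.0631 ± 0.0514 without replicate 2 (SD, n = 6).

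Sele and Selp lie on chromosome 1 on the same strand, Sele at chr1:164048234-164057677 and Selp at chr1:164115264-164150026 of GRCm38. They are the members whose levels deviated most alike from their group means (r = 0.87 over 22 libraries, on log2 CPM). Their upstream sequences are printed because these genes moved together and because both vessel selectins are known to be switched on in inflamed endothelium. Each run is the 250 bases before the transcription start, 5′ to 3′ on the gene's strand, from RefSeq on GRCm38.p6, at chr1:164047984-164048233 and chr1:164115014-164115263. Capitals mark matches to the AP-1 motif TGANTCA on either strand.
Sele: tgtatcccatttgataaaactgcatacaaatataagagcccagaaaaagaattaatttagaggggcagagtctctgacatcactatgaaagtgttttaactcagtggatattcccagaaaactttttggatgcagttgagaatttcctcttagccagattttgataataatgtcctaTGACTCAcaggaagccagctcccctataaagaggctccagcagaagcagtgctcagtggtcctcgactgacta
Selp: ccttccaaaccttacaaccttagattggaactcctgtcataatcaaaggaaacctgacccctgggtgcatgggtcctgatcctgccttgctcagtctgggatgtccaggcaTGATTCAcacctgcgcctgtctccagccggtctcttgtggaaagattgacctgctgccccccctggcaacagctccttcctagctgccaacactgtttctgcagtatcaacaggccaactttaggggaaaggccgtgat
The match spans bases -73 to -67 from the start in Sele and -139 to -133 in Selp. Of 32851 RefSeq windows of this length, 6.75% held this motif. Neither window held the NF-kappaB consensus, found in 7.25% of windows, or the interferon element core (GAAA, 2 free bases, GAAA), found in 2.98%.

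ICAM-1, encoded by Icam1, is the ligand of the leukocyte beta-2 integrins and is made by endothelium, epithelium and leukocytes alike. Icam1 (chr9:21015985-21028817) was lowest at 3.69, at the median 5.63 and highest at 10.3 CPM in C57BL/6, at 5.94, 11.5 and 28.2 CPM in Winnie, and at 18.3, 37.1 and 96.5 CPM in Winnie-Prolapse. The Winnie-Prolapse libraries were all above the C57BL/6 libraries, and the Winnie libraries overlapped both other groups. Icam1 rose in Winnie-Prolapse against C57BL/6, with a log2 fold change of 2.94 ± 0.32 and an adjusted p of 4.56e-06. In Winnie against C57BL/6 the log2 fold change was 1.28 ± 0.30 and the adjusted p 0.0085, which passed at 0.05 but not at 0.001. In Winnie-Prolapse against Winnie it was 1.66 ± 0.39 with an adjusted p of 0.024, again past 0.05 and not past 0.001.

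VCAM-1, encoded by Vcam1, binds the integrin made of Itga4 and the beta-1 chain, and is also made by stromal cells and macrophages. Vcam1 (chr3:116109949-116129688) was lowest at 6.02, at the median 8.21 and highest at 17.0 CPM in C57BL/6, at 8.78, 11.1 and 25.0 CPM in Winnie, and at 17.2, 22.5 and 43.2 CPM in Winnie-Prolapse. The lowest Winnie-Prolapse library was just above the highest C57BL/6 library, so the groups did not overlap. Vcam1 rose in Winnie-Prolapse against C57BL/6, with a log2 fold change of 1.52 ± 0.24 and an adjusted p of 8.84e-05. It was not called in Winnie against C57BL/6, where the log2 fold change was 0.75 ± 0.27 and the adjusted p 0.0528. The adjusted p for Winnie-Prolapse against Winnie was 0.0713, with a log2 fold change of 0.78 ± 0.26.

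MAdCAM-1 directs lymphocytes to the gut and its lymphoid follicles. Madcam1 (chr10:79664559-79668537) was lowest at 0.435, at the median 1.05 and highest at 3.97 CPM in C57BL/6, at 1.08, 1.70 and 3.24 CPM in Winnie, and at 2.94, 4.16 and 5.59 CPM in Winnie-Prolapse. The highest C57BL/6 library, replicate 5, was also the library with the most B cell and follicle marker RNA, and the lowest, replicate 7, was the library with the least. The log2 fold change in Winnie-Prolapse against C57BL/6 was 1.71 ± 0.40 with an adjusted p of 0.00218, which passed at 0.05 but not at 0.001. Without C57BL/6 replicate 5 it was 2.15 with an adjusted p of 0.0001, past the limit of the call. It also passed that limit with DESeq2 (adjusted p = 6.01e-05), limma-voom (0.000286) and all 3 groups in one fit (0.000658), while with sex as a covariate the adjusted p was 0.00101. Madcam1 passed at 0.05 in Winnie-Prolapse against Winnie, with a log2 fold change of 1.12 ± 0.26 and an adjusted p of 0.0231, and did not pass in Winnie against C57BL/6, with 0.60 ± 0.41 and an adjusted p of 0.293.

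The upstream sequences of Madcam1 and Icam1 are shown for the gut addressin and for the member with the smallest adjusted p. They are the 250 bases before the RefSeq start on GRCm38.p6, at chr10:79664309-79664558 and chr9:21015690-21015939, both on the forward strand. Capitals mark matches to the NF-kappaB consensus on either strand.
Madcam1: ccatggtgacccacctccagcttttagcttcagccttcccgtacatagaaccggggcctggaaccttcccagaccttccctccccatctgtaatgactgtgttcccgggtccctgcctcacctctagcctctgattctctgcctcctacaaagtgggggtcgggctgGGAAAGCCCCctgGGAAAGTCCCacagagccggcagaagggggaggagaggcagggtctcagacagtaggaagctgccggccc
Icam1: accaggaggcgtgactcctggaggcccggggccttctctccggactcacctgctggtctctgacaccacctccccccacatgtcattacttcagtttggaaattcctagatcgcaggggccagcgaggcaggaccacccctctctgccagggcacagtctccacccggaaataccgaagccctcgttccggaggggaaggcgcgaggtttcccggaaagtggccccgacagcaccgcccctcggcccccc
Madcam1 held 2 such matches, both on the opposite strand, at bases -83 to -74 and -70 to -61, and neither AP-1 nor the interferon core. In the Icam1 window none of these 3 motifs was matched, which says only that these letters are not in this window. The windows of Itga4 and Itgb7 held none of them either.

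Pecam1 (chr11:106654217-106750628), a junction protein that leukocytes bind as they cross, changed least among the vessel genes. It was lowest at 18.7, at the median 25.6 and highest at 34.8 CPM in C57BL/6, at 13.3, 25.3 and 45.2 CPM in Winnie, and at 23.4, 33.5 and 65.0 CPM in Winnie-Prolapse. The 3 groups overlapped. The log2 fold change in Winnie-Prolapse against C57BL/6 was 0.54 ± 0.17 with an adjusted p of 0.0131, below the 1.5-fold limit. It was 0.15 ± 0.21 with an adjusted p of 0.613 in Winnie against C57BL/6, and 0.39 ± 0.24 with an adjusted p of 0.32 in Winnie-Prolapse against Winnie.

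On the leukocyte side, the 3 integrin chains had log2 fold changes of 0.77 to 1.40 in Winnie-Prolapse against C57BL/6. None was called in the main edgeR fit, which had no covariate. Itgb7 (chr15:102215995-102231944), the beta chain shared by the gut-homing and the epithelium-binding integrin, was lowest at 1.92, at the median 2.98 and highest at 9.49 CPM in C57BL/6, at 3.93, 7.03 and 12.7 CPM in Winnie, and at 6.97, 10.6 and 13.1 CPM in Winnie-Prolapse. C57BL/6 replicate 5 was again the highest control, and the other 7 control libraries were all below the lowest Winnie-Prolapse library. The log2 fold change was 1.40 ± 0.31 with an adjusted p of 0.00144 in Winnie-Prolapse and 1.03 ± 0.34 with an adjusted p of 0.0371 in Winnie, each against C57BL/6. Without C57BL/6 replicate 5, Itgb7 was called in Winnie-Prolapse, with a log2 fold change of 1.71 and an adjusted p of 8.35e-05. It was also called with DESeq2 (adjusted p = 2.82e-05), limma-voom (0.000235), all 3 groups in one fit (0.000681), males alone (0.000988) and sex as a covariate (0.000441), and in females alone its adjusted p was 0.116. Itga4 and Itgae were called in none of these fits. Winnie-Prolapse and Winnie differed in Itgb7 by 0.38 ± 0.24 with an adjusted p of 0.311.

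Itga4 (chr2:79255426-79333123), the alpha-4 chain, was lowest at 8.37, at the median 11.2 and highest at 27.97 CPM in C57BL/6, at 12.9, 16.5 and 26.6 CPM in Winnie, and at 14.7, 26.5 and 39.8 CPM in Winnie-Prolapse. The groups overlapped, with C57BL/6 replicate 5 above 6 of the 7 Winnie-Prolapse libraries. The log2 fold change was 0.83 ± 0.26 with an adjusted p of 0.0133 in Winnie-Prolapse and 0.46 ± 0.23 with an adjusted p of 0.137 in Winnie, each against C57BL/6, and it was 0.37 ± 0.21 with an adjusted p of 0.258 between the Winnie groups. Itgae (chr11:73090583-73147446), the CD103 chain, was lowest at 1.30, at the median 2.34 and highest at 3.70 CPM in C57BL/6, at 2.62, 3.51 and 5.97 CPM in Winnie, and at 2.26, 3.47 and 7.58 CPM in Winnie-Prolapse. Its Winnie and Winnie-Prolapse medians were thus nearly level. Itgae passed at 0.05 in Winnie, with 0.70 ± 0.23 and an adjusted p of 0.0379, and in Winnie-Prolapse, with 0.77 ± 0.28 and an adjusted p of 0.0297. It no longer passed in Winnie-Prolapse without any one of C57BL/6 replicates 1, 2 and 4 or Winnie-Prolapse replicates 1 and 7. In Winnie-Prolapse against Winnie the Itgae difference was 0.07 ± 0.28 with an adjusted p of 0.895.

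**Figure D2:**
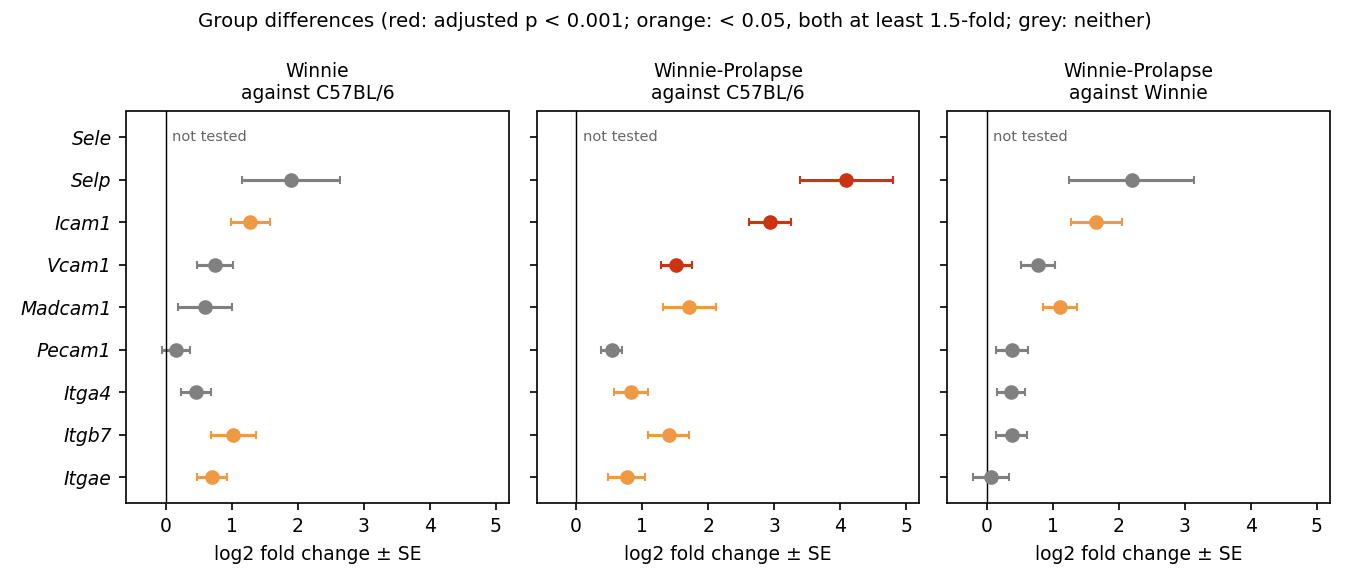
Log2 fold change of each gene with its SE (edgeR) in the 3 comparisons, where the line at 0 marks no difference and Sele was not tested. Red marks an adjusted p under 0.001, orange one under 0.05, both with at least 1.5-fold, and grey neither. In Winnie-Prolapse against C57BL/6, Selp, Icam1 and Vcam1 are red, and Madcam1, Itgb7, Itga4 and Itgae are orange.

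Counted together, 3 of the 8 members tested (Icam1, Vcam1 and Selp) rose in Winnie-Prolapse against C57BL/6, where 18.3% of the 17397 genes tested were called and 9.84% were called higher. By the looser rule 7 of the 8 passed, all higher, against 34.4% of genes in either direction and 16.7% higher. Leaving out each library in turn moved this looser count between 6 and 8. The same 3 members did not overlap between the groups, which held for 6.5% of genes in this direction. The median log2 fold change over the 8 was 1.46, against -0.01 over all genes tested. C57BL/6 replicate 5 bore on the count of 3 called, which was 5 without it, the added members being Madcam1 and Itgb7.

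In Winnie against C57BL/6, 0 of the 8 were called by edgeR, where 0.0925% of 17289 genes were called and 0.0868% were called higher. That share came from 16 genes, and leaving out 1 library moved the number between 0 and 677, the latter without Winnie replicate 5. At an unadjusted p under 0.05 there were 5 of the 8 members, as were 39.9% of all genes tested. DESeq2 called 1 member, Icam1, and 4.3% of its 29288 genes, while limma-voom called 0 of either. By the looser rule Icam1, Itgb7 and Itgae passed, 3 of 8 against 15.9% of genes in either direction and 7.42% higher. Leaving out each library in turn moved this count between 1 and 6. Icam1 alone passed without any one of C57BL/6 replicates 1, 2, 3 and 4 or Winnie replicates 1, 2 and 7. The count was 2 without C57BL/6 replicate 7 or Winnie replicate 4 or 6, 5 without Winnie replicate 5, and 6 without C57BL/6 replicate 5. No member was free of overlap between these groups, and 0.463% of genes had every Winnie library above every C57BL/6 library. In Winnie-Prolapse against Winnie, edgeR called 0 of the 8, with 0% of 17041 genes called, and 4 were at an unadjusted p under 0.05, as were 27.8% of all genes. DESeq2 called 2 members and 2.3% of its 29471 genes, and limma-voom called 0 of either. By the looser rule Icam1 and Madcam1 passed, 2 of 8 against 6.99% of genes in either direction and 4.27% higher. That count ranged from 1 without Winnie replicate 4 (Madcam1) to 4 without Winnie replicate 2, and was 3 without Winnie replicate 1. Every member overlapped between these groups, and 0.411% of genes had every Winnie-Prolapse library above every Winnie library. The comparisons share their samples in pairs and are not independent of each other.

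The squamous markers moved with the Winnie-Prolapse group, and the libraries without them were looked at by themselves. Winnie-Prolapse replicates 1 and 3 held 4.50 and 2.30 CPM of squamous markers, near the level of the other groups. Their Icam1 levels were 22.6 and 18.3 CPM, above the highest C57BL/6 library. Their Vcam1 levels were 22.5 and 17.4 CPM, also above it, while their Selp levels of 2.07 and 1.75 CPM and their Sele counts of 5 and 6 were the lowest of the Winnie-Prolapse group. Fitted with these 2 libraries alone against the 8 of C57BL/6, an alternative chosen after seeing the data, 1 member was called, Icam1, with a log2 fold change of 1.92 and an adjusted p of 0.000953, where 2.55% of 18356 genes were called. Vcam1 was at 1.30 with an adjusted p of 0.0168 and Selp at 1.23 with an adjusted p of 0.126, and neither was called. Against Winnie, the same 2 libraries gave a Selp log2 fold change of -0.69 with an adjusted p of 0.929, in place of 2.20 with all 7. Leaving out the milk-protein library, replicate 6, left the Selp log2 fold change against C57BL/6 at 3.96 with an adjusted p of 0.000462. The part of squamous tissue in these results was not tested.

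Sex was recorded for each mouse, and the members were compared between sexes within groups. In Winnie, Icam1 was 17.7 to 28.2 CPM in the 3 males and 5.94 to 11.5 CPM in the 4 females, with no overlap, and Itga4 was 17.3 to 26.6 CPM in males and 12.9 to 16.5 CPM in females. No member separated the sexes in C57BL/6 or in Winnie-Prolapse. The male minus female difference in the change from C57BL/6 to Winnie was 1.73 ± 0.58 on the log2 scale for Icam1 (adjusted p = 0.267) and 1.42 ± 0.45 for Vcam1 (adjusted p = 0.261). By edgeR, 0 of 18911 genes passed this interaction test at an adjusted p under 0.05, Icam1 and Vcam1 having unadjusted values of 0.00721 and 0.00564. With males alone, 6 members were higher in Winnie by the looser rule (Icam1, Vcam1, Selp, Itga4, Itgb7 and Itgae), as 22.5% of all genes changed by it, and with females alone 0 members and 1 gene in all passed. A count past the threshold in one sex and not in the other is no test of a difference between them. Winnie replicate 2, with its squamous and endothelial marker RNA, is one of the 3 males, and its part in this difference was not tested.

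The levels were also set against a gene of the cells that carry them, as log2 ratios of counts to Cdh5, the endothelial cadherin, or to Ptprc, the common leukocyte antigen CD45. Cdh5 itself rose in Winnie-Prolapse against C57BL/6, with a log2 fold change of 1.42 ± 0.27 and an adjusted p of 0.000404, and for Ptprc the log2 fold change was 1.48 ± 0.40 with an adjusted p of 0.00598. Icam1 to Cdh5 had median log2 ratios of -0.28 in the controls, 0.02 in Winnie mice and 1.05 with prolapse, and all 7 Winnie-Prolapse libraries were above every C57BL/6 library. For Selp to Cdh5 the medians were -3.24, -3.08 and -1.01, with 5 of the 7 Winnie-Prolapse libraries above every C57BL/6 library. Vcam1 was at medians of 0.24, 0.16 and 0.64, with 1 of 7 above. Madcam1 was at -2.79, -1.78 and -1.51, with 0 of 7 above. Pecam1 went the other way, at 1.81, 1.68 and 0.97, with 6 of the 7 Winnie-Prolapse libraries below every C57BL/6 library.

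Among the integrins, the ratio of Itga4 to Ptprc had medians of -0.32 in the controls, -0.96 in Winnie mice and -1.25 with prolapse, with 5 of the 7 Winnie-Prolapse libraries below every C57BL/6 library. Itgb7 to Ptprc was at -2.25, -2.12 and -2.53, and Itgae to Ptprc at -2.750, -3.003 and -3.743 with 3 of 7 below. These ratios are descriptions without a test, since Icam1, Vcam1 and the integrin chains are made by more than one kind of cell. With Tie1, another endothelial gene, in place of Cdh5, the shift of the median ratio from C57BL/6 to Winnie-Prolapse went from 1.33 to 2.28 for Icam1 and from -0.84 to -0.19 for Pecam1, so the size of both depends on the reference gene. The shift went from 0.40 to 0.79 for Vcam1, from 1.28 to 1.64 for Madcam1, from 4.19 to 4.55 for Sele and from 2.23 to 2.29 for Selp. The Sele values are not exact sizes, since its C57BL/6 libraries held 0 to 3 counts and their ratios depend on the 0.5 added to each count.

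**Figure D3:**
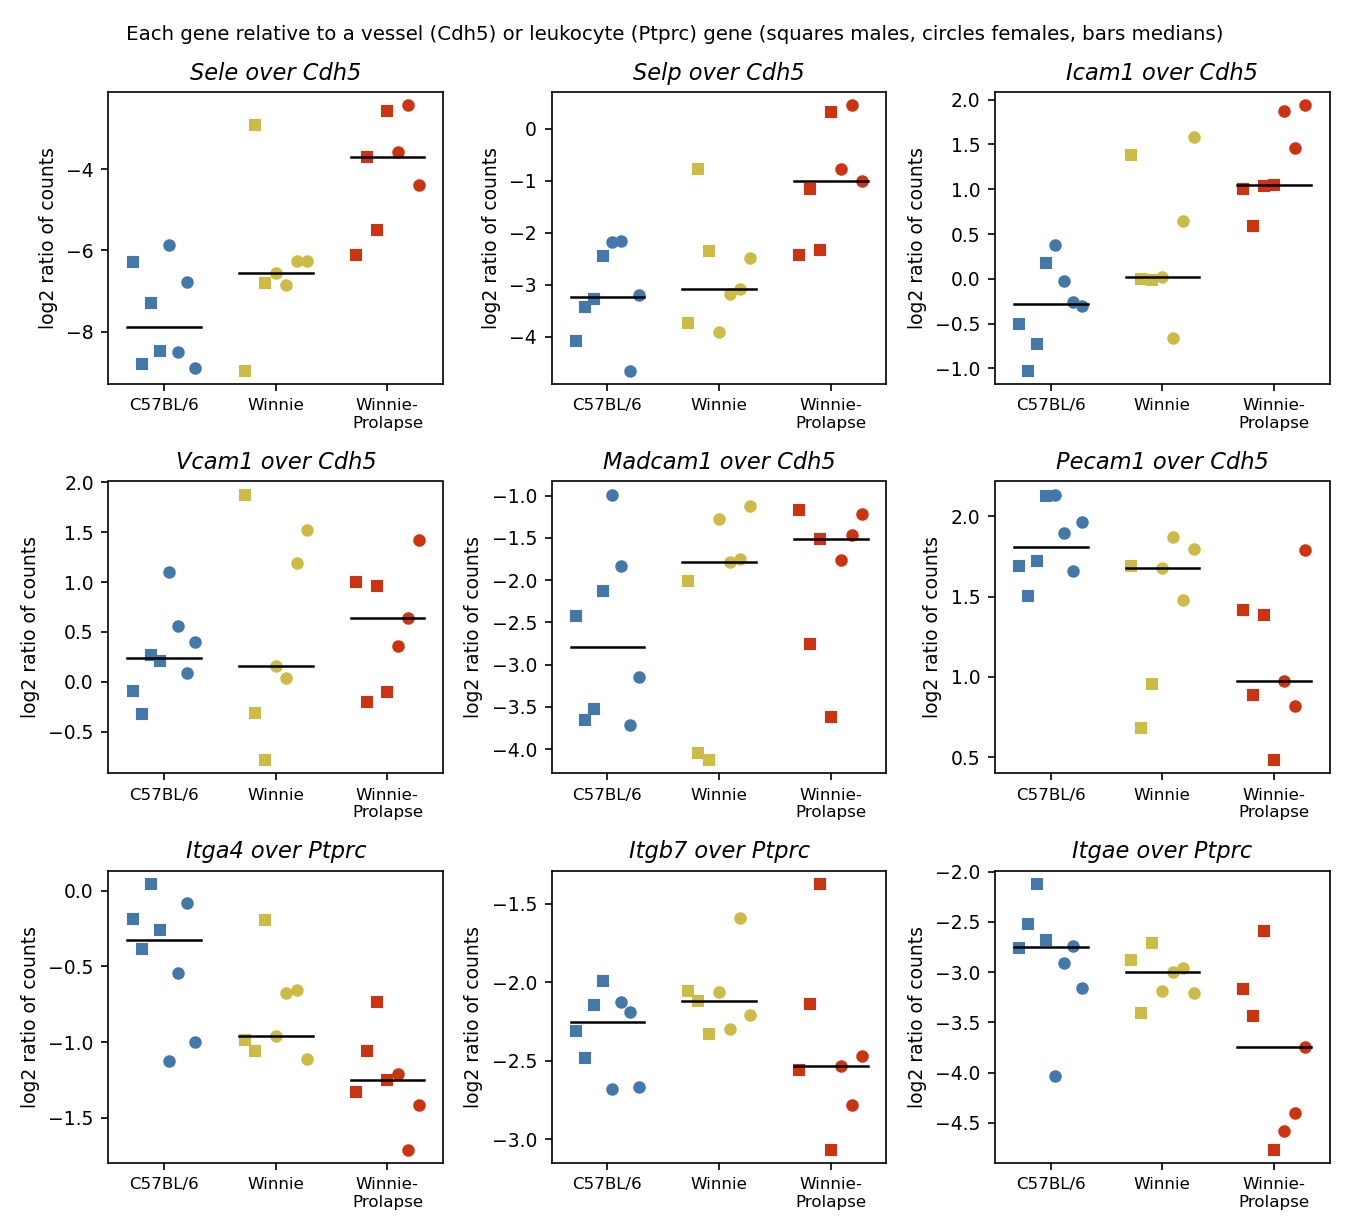
Log2 ratio of the counts of each gene to Cdh5 (vessel genes) or Ptprc (integrin chains) in each library, with 0.5 added to each count, squares for males, circles for females and bars for medians. Icam1 over Cdh5 in all 7 Winnie-Prolapse libraries exceeds the highest C57BL/6 value, and Itga4 over Ptprc has its lowest median, -1.25, in Winnie-Prolapse.

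Among the partners of the selectins, Selplg, whose product PSGL-1 is the leukocyte ligand of P-selectin, rose in Winnie-Prolapse against C57BL/6, with a log2 fold change of 2.51 ± 0.36 and an adjusted p of 4.64e-05. It was the 1 of 10 selectin ligand and glycosyltransferase genes tested that was called, against 9.84% of all genes called higher. The enzymes St3gal4, Fut4 and Gcnt1 were not, with log2 fold changes of -0.55, 0.41 and -0.50. The median of the 10 was 0.34, against -0.01 over all genes.

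Of 11 other integrin genes tested, 6 rose in Winnie-Prolapse against C57BL/6 and 0 fell, with a median log2 fold change of 1.45. Of all genes tested there, 9.84% were called higher. Itgam, Itgb2 and Itgal, which make the beta-2 integrins that bind ICAM-1, rose by 3.11 ± 0.34, 2.60 ± 0.37 and 2.51 ± 0.40 on the log2 scale. Itga2, Itga6 and Itgav, which epithelial and stromal cells also make, rose by 2.68 ± 0.47, 1.52 ± 0.15 and 1.31 ± 0.20. Itgb1, the other partner of Itga4, was at 0.21 ± 0.13 with an adjusted p of 0.184. Of 8 neutrophil markers 5 were tested, and 4 rose, S100a9 and S100a8 with the largest changes. The remaining marker passed neither rule. The summed medians of the list were 287, 423 and 702 CPM in C57BL/6, Winnie and Winnie-Prolapse. The part of neutrophils in the result was not tested. In Winnie against C57BL/6 edgeR called none of the 11 integrin genes. By the looser rule 5 were higher and 2 lower, against 7.42% of all genes higher and 15.9% in either direction. Itgam was among the higher, with 1.40 ± 0.32 and an adjusted p of 0.00762.

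Among 12 other genes of endothelial adhesion and passage, 1 rose and 2 fell in Winnie-Prolapse against C57BL/6, with a median log2 fold change of -0.23. Cdh5 was the one that rose, and Aoc3, the vascular adhesion protein that smooth muscle also makes, fell by 1.39 ± 0.17 on the log2 scale, with all 7 libraries below every C57BL/6 library. F11r, Cx3cl1 and Alcam, the most abundant of the list, were at -0.05, -0.40 and -0.06. Smooth muscle markers fell in the same comparison, 6 of 6 called, with summed medians of 8315 CPM in C57BL/6 and 2208 CPM in Winnie-Prolapse, and their part in the Aoc3 result was not tested. Among 10 genes of integrin activation, 3 rose and 0 fell. Apbb1ip rose by 1.48 ± 0.29, Fyb by 1.33 ± 0.24, and Rap1b, a small GTPase made by most cells, by 0.63 ± 0.07. Of all genes tested in this comparison, 9.84% were called higher and 18.3% in either direction.

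Gut homing receptors and chemokines had 1 of 11 genes called in Winnie-Prolapse against C57BL/6, Ccr10, the receptor for CCL28 on IgA plasma cells, with a log2 fold change of 2.23 ± 0.27 and an adjusted p of 1.03e-05. Ccr9, the receptor that guides lymphocytes to the small intestine, was at 1.47 ± 0.31 with an adjusted p of 0.00113. The chemokines Ccl28, Ccl21a and Cxcl13 were at 0.20, 0.78 and 0.74 and were not called. Of 7 genes tested on the list of E-cadherin and tissue retention genes, 6 rose and 0 fell. Prdm1 rose by 2.80 ± 0.24 and Tgfb1 by 1.46 ± 0.24. Of all genes tested in this comparison, 9.84% were called higher. Cdh1, which encodes E-cadherin itself, was at 0.16 ± 0.11 with an adjusted p of 0.232. Prdm1 was also called in Winnie against C57BL/6, with 2.04 ± 0.26 and an adjusted p of 0.000937.

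Markers of the cells that can carry the members differed in how they moved. Blood endothelium markers summed to medians of 76.6, 77.9 and 97.1 CPM in the 3 groups. In Winnie-Prolapse against C57BL/6, 0 of 12 were called by edgeR and 9 of 12 were higher by the looser rule. Of all genes tested in that comparison, 9.84% were called higher and 18.3% in either direction. By the looser rule these shares were 16.7% and 34.4%. Plvap, Vwf and Flt1 were at 1.011, 0.997 and 0.944 there. Winnie replicate 2, at 154 CPM, and Winnie-Prolapse replicate 4, at 251 CPM, held the most endothelial marker RNA of their groups, and these were the libraries with the highest Sele, Selp and Pecam1 of their groups. Pan-leukocyte and T cell markers summed to medians of 22.6, 53.4 and 94.1 CPM in the 3 groups, with 6 of 10 rising in Winnie-Prolapse, among them Cd4 by 1.86 ± 0.34. Markers of CD103 dendritic cells had 3 of 8 called higher, and by the looser rule 6 were higher and 1 lower. Those of intraepithelial lymphocytes had 3 of 6 called higher, and 5 were higher by the looser rule. Platelet markers, which bear on Selp and Pecam1, had 1 of 5 called higher, and by the looser rule 2 were higher and 2 lower. Their sum was highest in Winnie-Prolapse replicate 2, at 143 CPM, of which Ppbp held 122 CPM. Fibroblast and pericyte markers, which bear on Vcam1, had 0 of 8 called, and by the looser rule 4 were higher and 2 lower, with summed medians of 922, 591 and 1185 CPM in the 3 groups. Lymphatic endothelium markers had 0 of 5 called and 3 higher by the looser rule. B cell and follicle markers had 0 of 8 called and a median log2 fold change of -0.06. Markers also moved in Winnie against C57BL/6 by the looser rule, which 15.9% of all genes tested passed, 7.42% of all being higher. There 7 of 10 pan-leukocyte and T cell markers and 4 of 6 intraepithelial lymphocyte markers were higher. Of 8 CD103 dendritic cell markers 4 were higher and 1 lower, and 0 of 12 blood endothelium markers passed. Smooth muscle markers were lower, 6 of 6, with summed medians of 8315 CPM in C57BL/6 and 3446 CPM in Winnie, as were 4 of 8 fibroblast and pericyte markers. The part of these cells in the levels of the members was not tested.

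**Figure D4:**
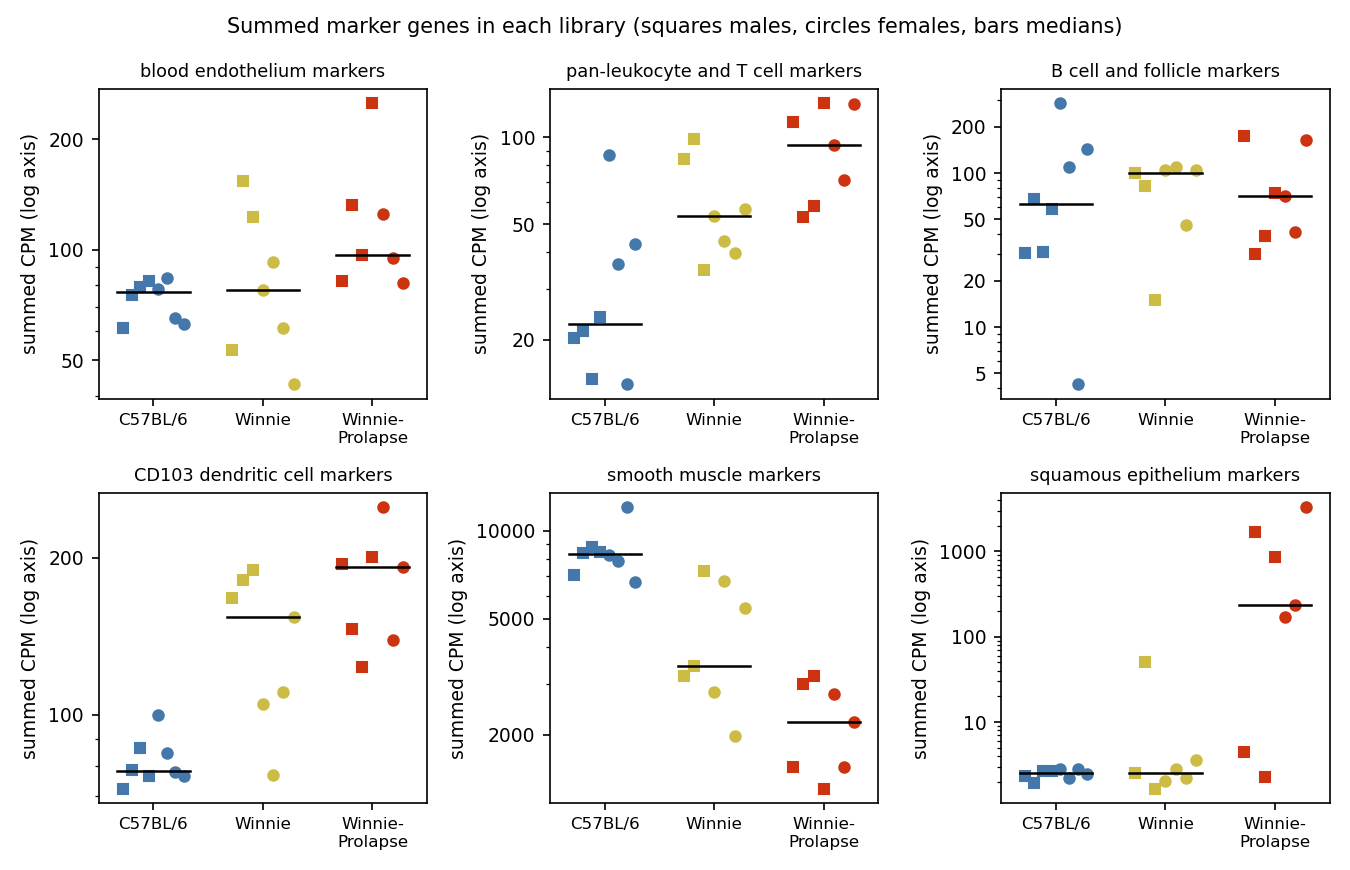
Summed CPM (log axis) of 6 marker lists in each library of the 3 groups, with squares for males, circles for females and bars for medians. Pan-leukocyte and T cell marker sums, which include Ptprc, have medians of 22.6, 53.4 and 94.1 CPM in C57BL/6, Winnie and Winnie-Prolapse, and squamous epithelium markers exceed 100 CPM in 5 Winnie-Prolapse libraries alone.

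Within the groups, some genes followed the members closely. Likeness was the Pearson r of deviations from the group mean of log2 CPM over 22 libraries, ranked among 13592 genes, and it is a description of libraries that share tissue composition. The genes most like Icam1 were D16Ertd472e (0.92), Fxyd5 (0.91) and Il1b (0.90), and those most like Vcam1 were Lcp2 (0.91), Selplg (0.89) and Igsf6 (0.89). Those most like Selp were Cyyr1 (0.88), Elk3 (0.87) and Sema6b (0.87), and those most like Sele were Mmp3 (0.87), Elk3 (0.87) and Sh3pxd2b (0.86). For Pecam1 they were Fgd5 (0.90), Cyyr1 (0.89) and Plxnd1 (0.87). Madcam1 had no gene above 0.79, reached by Pla2g2d, followed by Cxcr4 (0.75) and Slc35a5 (0.75).

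The integrin chains followed genes known from leukocytes. Itga4 was most like Inpp5d (0.96), Ifi203 (0.94) and Fli1 (0.93). Itgb7 was most like Trac (0.93), Fermt3 (0.93) and Dock2 (0.93). Itgae was most like Sept1 (0.86), Tbc1d10c (0.85) and Ptprcap (0.85). Between members, r was 0.82 for Itga4 and Itgb7, 0.81 for Vcam1 and Itga4, 0.76 for Icam1 and Selp, 0.01 for Madcam1 and Sele, and -0.30 for Sele and Itgae.

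Reads of overlapping genes bear on some members. Icam1, Vcam1, Selp, Itga4 and Itgae each overlap a gene on the other strand in GENCODE M21, Itga4 with Cerkl and Itgae with Haspin among them. The strand setting of the counting is not given in the sources used here, so a share of reads from these partners in the member counts cannot be told apart.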

How the data were processed

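RNA of 22 distal colon libraries was measured by poly(A) sequencing with a stranded kit and paired ends. The authors ran RNAsik 1.5.4 on GRCm38 and deposited raw read counts per gene from featureCounts, and STAR and limma are named in the submitters' processing notes. Annotation release, strand setting and handling of shared reads are not given in the sources used here. The members and lists were chosen with earlier results of these data known.

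Groups and sexes were read from the labels, and all labelled Winnie libraries were used, more than the Winnie mice that the study's methods name for sequencing. Counts were tested with edgeR 4.0.16 (quasi-likelihood F test, TMM, filterByExpr, Benjamini-Hochberg over all genes tested) in R 4.3.3, each comparison on its own 2 groups with no covariate, as the study's methods give no covariate. The p-values measure the spread between mice. A count of 0 allows up to 3 counts, 0.0825 to 0.121 CPM, and intervals cover counting error only. RPKM values used union exon lengths of GENCODE M21, whose identifiers matched 45143 of 46078 genes. RefSeq promoters matched 6 of 9 members.

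The genes named were all members, the 3 genes most like each member and, from each list, genes among its 3 with the highest mean CPM or its up to 2 called genes with the largest change in Winnie-Prolapse against C57BL/6, of which not all are described. Itgb2, Itgal, Ccr9 and Tie1 were added for their known binding or as references after their values were seen, and genes that overlap a member were named by position. A gene that this rule names is not reported here. There were 19 lists with 165 genes. Alternatives were DESeq2 1.42.0, limma-voom (limma 3.58.1), other scaling, filters and thresholds, sex as a covariate or 1 sex alone, all groups in one fit, leaving out each library, and library sets chosen after seeing the data.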

Additional observations from a re-analysis of the deposited data

Results flagged for a closer look

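In 27 tests of single genes within a group, 10 found the highest library farther from its nearest neighbour, relative to the range of the group, than the 95% limit of Dixon's test. For normally distributed values, chance passes this limit in about 1 group in 20. The CPM values were not log-transformed and all 10 cases were at the high end, so that rate need not hold here. Genes of 1 library are also not independent.

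Winnie-Prolapse replicate 4 stood above its group for Vcam1 at 43.2 CPM (next 26.0), for Sele at 7.77 CPM (next 2.62), for Selp at 58.1 CPM (next 19.4) and for Pecam1 at 65.0 CPM (next 37.2). Winnie replicate 2 stood above its group for Sele at 3.72 CPM (next 0.154) and for Selp at 16.5 CPM (next 3.74). C57BL/6 replicate 5 stood above its group for Vcam1 at 17.0 CPM (next 10.5), for Madcam1 at 3.97 CPM (next 1.97), for Itga4 at 27.97 CPM (next 16.6) and for Itgb7 at 9.49 CPM (next 5.51).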

How the results depend on the processing

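Of 8 members tested, edgeR called 3 in Winnie-Prolapse against C57BL/6. DESeq2, with its own filter, called 6 of all 9, Sele among them (16.9% of its genes called). The count was 5 with all 3 groups in one fit (20.1% of genes), 7 at an adjusted p under 0.05 (34.4%), 1 in males alone (Itgb7, 1.76%), 1 in females alone (Icam1, 1.45%), 5 without C57BL/6 replicates 5 and 7 (18%), and 1 without the Winnie-Prolapse libraries with squamous markers (Icam1, 2.55%). It was 4 with limma-voom (17.6%), 4 with sex as a covariate (17.7%), 4 of 9 with no low-count filter (10.6%) and 2 with at least 10 counts in every library (17.2%). It was from 3 to 5 when each library was left out in turn. Icam1, Vcam1 and Selp were called in each of those leave-one-out fits. With limma-voom, Madcam1 and Itgb7 were called and Selp was not (adjusted p = 0.00345). In Winnie against C57BL/6 the count of 0 became 1 with DESeq2 (4.3% of its genes) and 3 at an adjusted p under 0.05, and in Winnie-Prolapse against Winnie it became 2 with either. The leave-one-out fits of both comparisons gave 0 calls throughout at an adjusted p under 0.001.

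Directions reversed in Winnie against C57BL/6 in females alone, for Selp (-0.51), Itga4 (-0.048) and Pecam1 (-0.22). In Winnie-Prolapse against Winnie, Itgae reversed with limma-voom (-0.0039), in males alone (-0.046), and without Winnie-Prolapse replicate 1 (-0.15) or 7 (-0.02), the leave-one-out range being -0.15 to 0.21, and Selp reversed without the squamous-marker libraries (-0.69). The cause was not tested. With Tie1 as the reference, the Icam1 median ratio in Winnie minus C57BL/6 moved from 0.30 to 1.03, and that of Pecam1 in Winnie-Prolapse minus Winnie from -0.71 to -0.10. No paired analysis was possible because replicate numbers only follow the order of the sample list. Other log2 fold changes kept their direction, 606 on the same side of the threshold, 24 newly past it and 8 no longer past it. The 24 include main-fit estimates that passed only because the limit was set at an adjusted p under 0.05. At this depth, Sele in C57BL/6 was at or under the limit of 3 counts in each library.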
